A study of Arabidopsis thaliana with 15 samples.

Results

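The coumarin pathway of the Arabidopsis root was examined through 7 listed genes of the 24618 in the count table. The genes were listed by locus with no measured value as a criterion, although earlier results of these data were known when they were chosen. They cover synthesis (F6'H1, COSY, S8H and CYP82C4), release of the glucosylated store (BGLU42), export (PDR9) and transcriptional control (MYB72). All 7 have a row in the table, but only 5 had enough counts for testing in each of the 3 treatment comparisons, since S8H and MYB72 fell under the count filter.

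Bulk RNA-seq libraries were made from seedlings of the ecotype Col-0, with 3 libraries, A, B and C, in each of 5 groups. The groups were salt (150 mM), flg22 (250 nM by the labels), their shared mock, mannitol (300 mM) and the mannitol control. All groups share this ecotype, and no transgene or other allele is named for them. The methods give roots of seedlings of 6 days harvested 3 hours after treatment, whereas the labels name whole seedlings, a lower flg22 dose than the methods, and times that they do not assign to samples. In the methods for imaging, salt and flg22 were given in liquid medium with a liquid mock, and mannitol on plates with mock plates. These methods give seedlings of 5 days for salt and flg22 and of 6 days for mannitol, whereas those for RNA-seq give 6 days. Nothing says that the 3 libraries of a group came from separate cultures, so p-values measure only the spread between these samples. In bulk tissue, fewer cells of a type and less RNA per cell cannot be told apart.

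Total counts ranged from 6094503 to 13943645 per library, so that 3 counts correspond to 0.207 to 0.467 CPM, counts scaled to a common library size. Summed over 8 root markers, levels were 482 to 489 CPM in salt, 415 to 569.8 in flg22, 387 to 396 in mock, 241 to 275 in mannitol and 275 to 311 in its control. CASP1 weighed most in the root sum, with means of 279 CPM in salt and 162 in mock. Taken singly, 4 root markers were higher and 4 lower in salt than in mock, so their sum does not speak for each of them. Summed over 8 photosynthetic shoot markers, levels were 17.2 to 69.2 CPM in salt, 49.2 to 246 in flg22, 90.6 to 151 in mock, 53.4 to 69.4 in mannitol and 59.1 to 82.4 in its control. RBCS1B, a small subunit of Rubisco, had 0 counts in all 6 libraries of mannitol and its control, but it does not stand for the 8. RBCS1A had means of 18.8 CPM in mannitol and 27.0 in its control, against 33.7 in mock. LHCA3 had means of 16.3 and 14.1 CPM, against 11.9 in mock. Of the 8, 7 were higher and 1 lower in mock than in the mannitol control. Mock B stood apart upward most often, lying at least 2-fold above both other mock libraries in 368 of 18699 genes (1.97%), against 0.38% to 1.13% in the other 14 libraries. Genes at least 2-fold below both group-mates were most frequent in flg22 C (1.53%), mock A (1.44%) and salt C (1.42%), with 1.38% in mock B.

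Coumarins are phenolic compounds made from feruloyl-CoA, a product of the general phenylpropanoid pathway. Roots secrete them to dissolve and reduce ferric iron in soils where iron is poorly available, and they also shape the bacteria around the root. Most of the genes described here are known to be induced by iron deficiency, downstream of the transcription factor FIT.

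The 250 bases upstream of the annotated transcript starts are shown for F6'H1, CYP82C4, S8H and PDR9, chosen after their values were seen. In salt F6'H1, CYP82C4 and PDR9 passed the adjusted p-value, while S8H was not tested and was close to the detection limit. The sequences were read 5′ to 3′ on the gene's strand from the RefSeq assembly TAIR10.1, and all 4 genes lie on the plus strand. The windows are chr3:4449009-4449258 for F6'H1, chr4:15451738-15451987 for CYP82C4, chr3:4104213-4104462 for S8H and chr3:19825017-19825266 for PDR9. Capitals mark E-boxes, the letters CANNTG to which helix-loop-helix factors such as FIT can bind.
F6'H1: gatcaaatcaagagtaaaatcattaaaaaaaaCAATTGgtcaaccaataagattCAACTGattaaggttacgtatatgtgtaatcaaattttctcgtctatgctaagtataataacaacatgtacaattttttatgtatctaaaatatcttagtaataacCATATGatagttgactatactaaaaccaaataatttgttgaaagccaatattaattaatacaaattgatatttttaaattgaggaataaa
CYP82C4: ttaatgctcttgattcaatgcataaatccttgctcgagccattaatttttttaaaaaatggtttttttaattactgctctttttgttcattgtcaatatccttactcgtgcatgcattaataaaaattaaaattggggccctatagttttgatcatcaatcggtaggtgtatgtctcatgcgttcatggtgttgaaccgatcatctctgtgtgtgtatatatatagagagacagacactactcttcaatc
S8H: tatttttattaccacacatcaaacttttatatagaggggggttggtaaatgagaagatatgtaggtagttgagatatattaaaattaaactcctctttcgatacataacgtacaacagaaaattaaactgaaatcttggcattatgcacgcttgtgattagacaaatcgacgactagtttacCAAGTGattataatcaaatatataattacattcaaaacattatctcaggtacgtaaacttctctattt
PDR9: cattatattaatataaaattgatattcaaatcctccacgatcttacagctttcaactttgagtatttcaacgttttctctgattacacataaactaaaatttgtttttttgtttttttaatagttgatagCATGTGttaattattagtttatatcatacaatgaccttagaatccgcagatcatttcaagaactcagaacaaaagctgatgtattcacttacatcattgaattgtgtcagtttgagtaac

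The F6'H1 window held 3 E-boxes, at 218, 196 and 90 bases before the start. S8H held 1 at 68 bases and PDR9 1 at 120 bases, while the windows of CYP82C4, COSY, BGLU42 and MYB72 had none. Thus 3 of the 7 windows matched, against 55.3% of 27443 promoters of the same length. Both strands were searched, and the E-box letters include those of the G-box, CACGTG, which had no match in any of the 7 windows and was found in 6.5% of all promoters. The core of the ABA-response element, ACGTG, also had no match among the 7 and occurred in 22.9% of promoters. The W-box core TTGAC, bound by WRKY factors, was present in 3 of the 7, with 2 matches in F6'H1 and 1 each in COSY and CYP82C4, and in 44.9% of promoters.

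Per kilobase of exon, F6'H1 and PDR9 were the most abundant members in every group. In mock, F6'H1 reached 239 ± 102 CPM per kb and PDR9 122 ± 13.7 (SD, n = 3 each, as for all means below). CYP82C4 followed with 41.4 ± 30.5 CPM per kb in mock, BGLU42 with 12.5 ± 0.603, COSY with 3.05 ± 0.687 and S8H with 2.52 ± 3.66. In this order only COSY and S8H overlapped between neighbours in mock, although the means of CYP82C4 and BGLU42 differed by less than the SD of CYP82C4. With flg22 F6'H1 was again first, at 308.5 ± 27.5 CPM per kb, before PDR9 at 134 ± 25.6. In the other 3 groups PDR9 was first, with 81.9 ± 6.30 CPM per kb in salt, 86.5 ± 7.09 in mannitol and 118 ± 5.92 in the mannitol control, before F6'H1 with 50.7 ± 9.75, 35.1 ± 11.2 and 54.1 ± 2.82. S8H was the lowest of the 6 detected members in all 5 groups, at 0.137 ± 0.126 CPM per kb in salt and 0.292 ± 0.246 in mannitol.

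**Figure D1:**
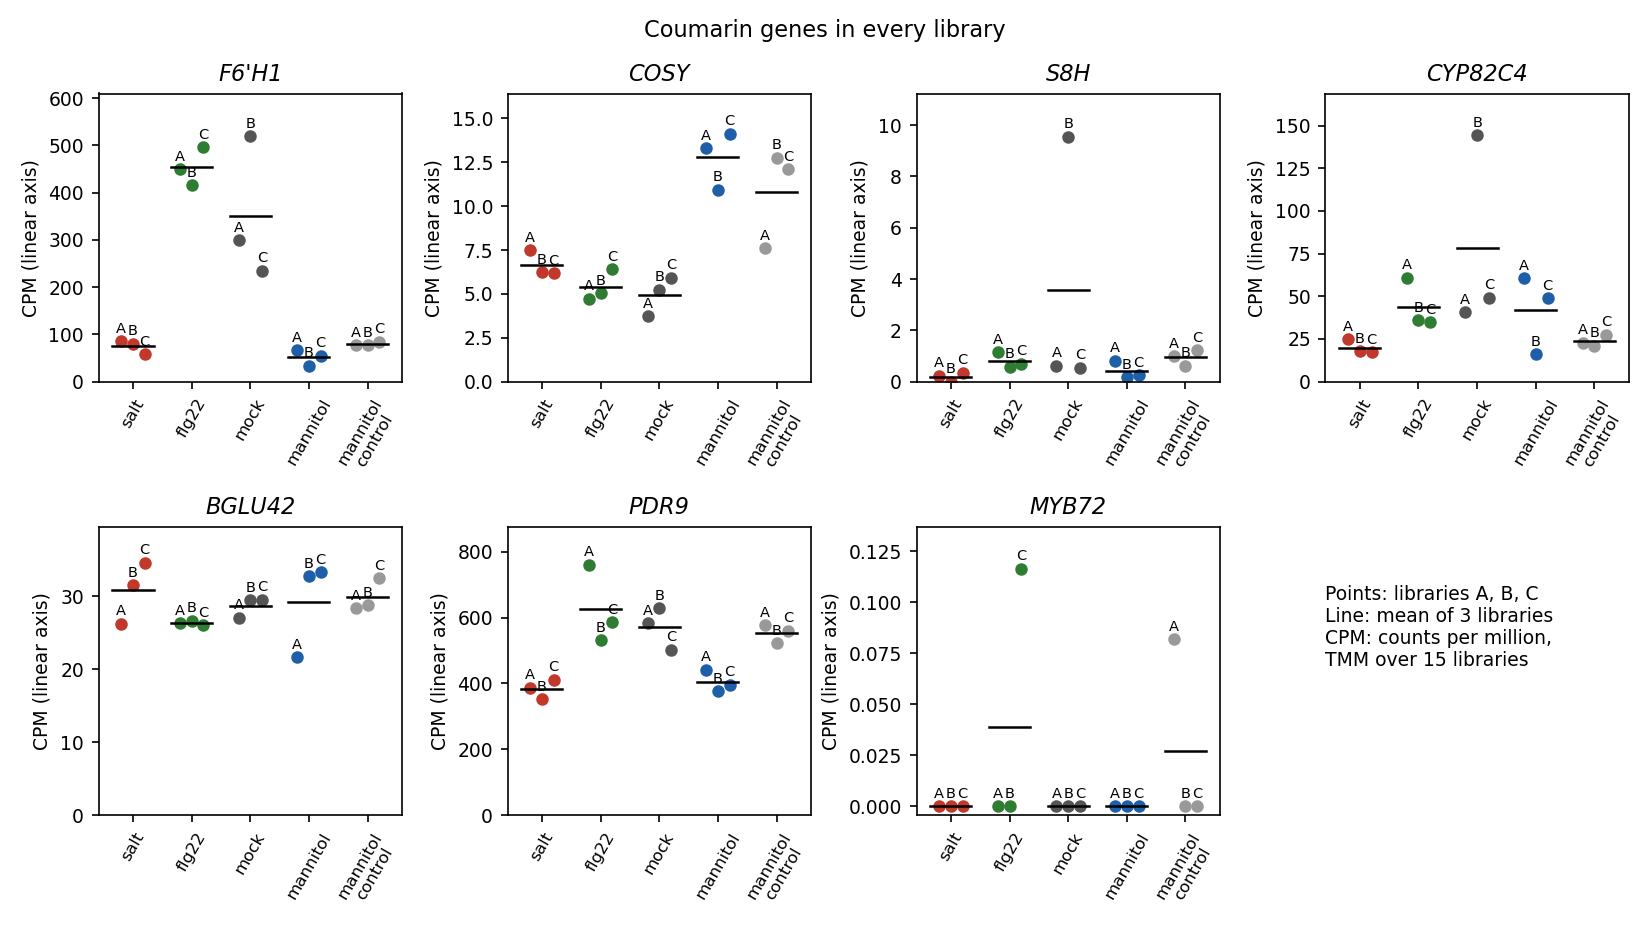
Level of each of the 7 genes in each of the 15 libraries, in CPM on linear axes that start at 0 apart from a small margin for MYB72. Points are libraries A, B and C and lines are group means. F6'H1 lies at 58.3 to 85.1 CPM in salt and at 235 to 520.2 CPM in mock, and mock B is the highest point for S8H and CYP82C4.

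Under salt, 2 of the 5 members tested were differentially expressed genes (DEGs), and both fell. F6'H1, the dioxygenase that commits feruloyl-CoA to coumarin synthesis, fell 4.59-fold, and CYP82C4, the cytochrome P450 that converts fraxetin to sideretin, fell 3.8-fold. PDR9, the ABC transporter that exports coumarins, was 1.46-fold lower and passed the p-value threshold but not the fold threshold. BGLU42 and COSY did not pass the test. A gene counted as a DEG when its p-value, adjusted after Benjamini and Hochberg, was under 0.05 and it changed at least 2-fold. By this rule 17.4% of all 18484 tested genes were called, 9.59% as higher and 7.84% as lower, and 41.9% passed the adjusted p-value alone, as did 3 of the 5 members.

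F6'H1 (AT3G13610, chr3:4449259-4450811) had 85.1, 80.4 and 58.3 CPM in the salt libraries, against 299, 520.2 and 235 CPM in mock. The groups did not overlap, as in 54.4% of all 18484 genes tested, and the lowest mock library was above every salt library although mock B was far higher than the other 2. The log2 fold change was -2.20 (SE 0.34, 95% interval -3.05 to -1.35, adjusted p = 0.00368 in edgeR's quasi-likelihood fit after Benjamini-Hochberg correction). It was -1.80 without mock B, and all 13 alternative fits called it. Of its 1470 exonic bases, 67 overlap the neighbouring gene AT3G13620.

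CYP82C4 (AT4G31940, chr4:15451988-15454224) had 24.9, 17.7 and 17.2 CPM in salt, against 40.6, 144.3 and 49.3 CPM in mock. No salt library reached the lowest mock library, and mock B was far above its group-mates. Its log2 fold change in salt was -1.93 (SE 0.57, 95% interval -3.38 to -0.48, edgeR quasi-likelihood adjusted p = 0.0453 with Benjamini-Hochberg adjustment). Without mock B it was smaller, -1.15, and the adjusted p was 0.000998 in the same edgeR test. Only 8 of 13 alternatives kept the call, and leaving out any single salt library lost it, with edgeR adjusted p-values of 0.106 to 0.171 at log2 fold changes of -2.15 to -1.81.

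PDR9 (AT3G53480, also named ABCG37, chr3:19825267-19831880) had 387, 353 and 411 CPM in salt, against 583, 629.6 and 502 CPM in mock. The groups did not overlap. Salt was lower by a log2 fold change of -0.54 (SE 0.11, 95% interval -0.78 to -0.30, adjusted p = 0.00285 in edgeR's quasi-likelihood fit after Benjamini-Hochberg correction). It lay between -0.69 and -0.47 over 13 alternatives.

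S8H (AT3G12900, chr3:4104463-4106341), the dioxygenase that turns scopoletin into fraxetin, was close to the detection limit. The salt libraries held 2, 0 and 3 counts, against 4, 62 and 7 counts in mock. The mock mean therefore rested on library B, at 9.55 CPM, and the gene did not pass the count filter in this comparison. No fold change is given because the salt libraries lie at or under 3 counts each.

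COSY (AT1G28680, chr1:10078189-10079909), the acyltransferase that closes the ring to give scopoletin, had 7.49, 6.22 and 6.18 CPM in salt, against 3.74, 5.24 and 5.93 CPM in mock. The salt libraries were all slightly higher, but the log2 fold change of 0.42 (SE 0.22, 95% interval -0.07 to 0.91) did not pass the test (edgeR adjusted p = 0.153). Of its 1630 exonic bases, 1364 overlap AT1G28685, and the nonstranded libraries do not separate reads of overlapping genes. BGLU42 (AT5G36890, chr5:14541289-14546230), a beta-glucosidase that frees coumarins from their sugar, had 26.3, 31.5 and 34.6 CPM in salt, against 27.1, 29.4 and 29.6 CPM in mock. Its log2 fold change was 0.13 with a 95% interval of -0.13 to 0.40. Across all 15 libraries it stayed between 21.6 and 34.6 CPM, the narrowest range of the 6 detected members on a fold scale.

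MYB72 (AT1G56160, chr1:21022384-21023587), the factor that activates coumarin genes in iron-deficient roots and in roots colonised by beneficial bacteria, had 1 count in flg22 C, 1 count in library A of the mannitol control and 0 in the other 13 libraries. It was not tested anywhere. A share of its exons, 765 of 1034 bases, overlaps AT1G56165, and how such reads were counted is not given in the sources used here.

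**Figure D2:**
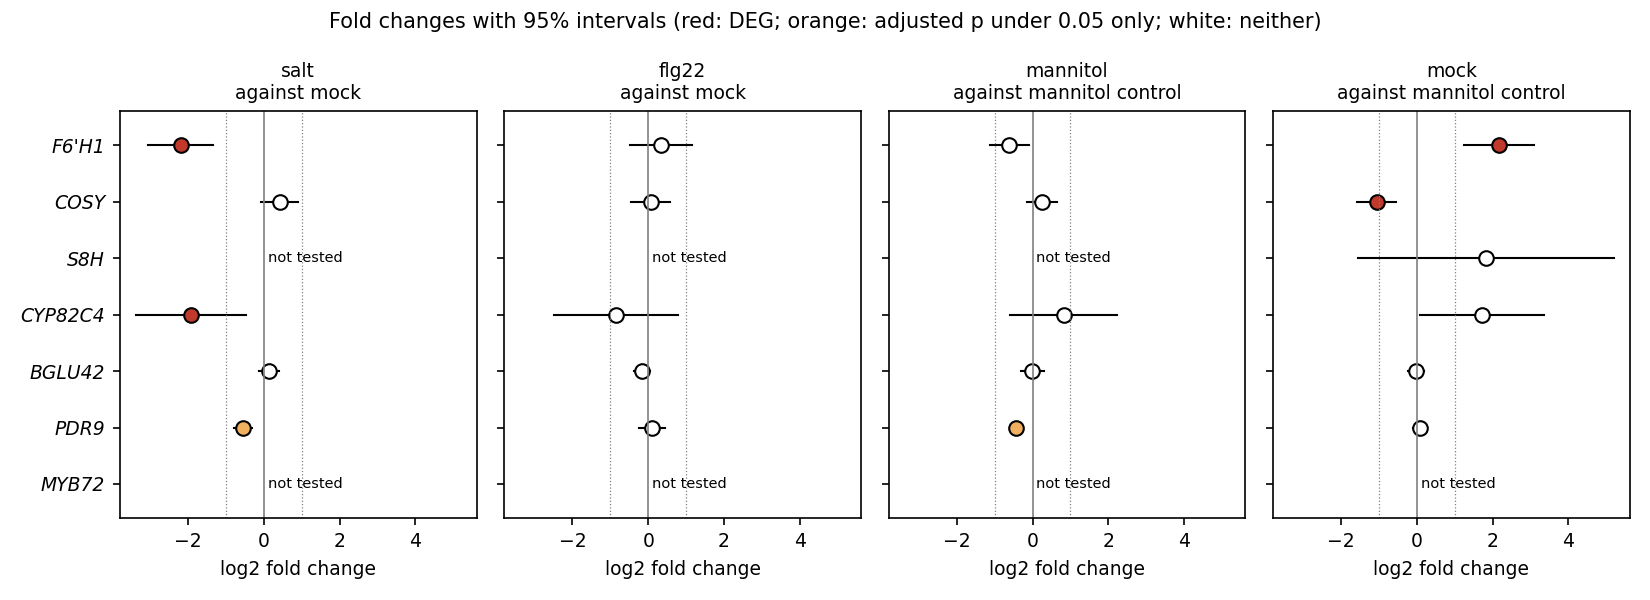
Log2 fold change of each member in the 4 comparisons, with 95% intervals. Dotted lines mark a log2 fold change of 1 in size. F6'H1 is at -2.20 in salt against mock and at 2.16 in mock against the mannitol control, values that share the mock libraries. The intervals of CYP82C4 are wide in all 4 comparisons.

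Several genes of the general phenylpropanoid pathway, listed as phenylpropanoid supply, moved in the opposite direction to F6'H1 in salt. Of 13 tested genes of phenylpropanoid supply, 7 were DEGs as higher and 0 as lower, against 9.59% and 7.84% of all genes tested. Their median log2 fold change was 1.01, against -0.01 over all genes. By the adjusted p-value alone, 11 were higher and 1 was lower, CSE, at a log2 fold change of -0.49. 4CL3 and 4CL1, ligases that activate coumaric acid, rose 3.05-fold and 2.58-fold, and PAL4, a phenylalanine ammonia-lyase, rose 3.04-fold. PAL4 had 343, 350.4 and 241 CPM in salt, against 123, 113 and 80.5 CPM in mock, without overlap. The counts of calls were the same without mock B, at 7 and 0.

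Among 6 close relatives of the members, 2 were DEGs as lower in salt and 0 as higher. MYB10, which acts with MYB72, fell 6.56-fold, to 7, 5 and 2 counts in salt, against 18, 34 and 37 counts in mock. F6'H2, the paralogue of F6'H1, fell 2.18-fold, with 1.73, 0.830 and 2.33 CPM in salt, against 2.80, 4.93 and 3.20 CPM in mock. Without mock B only 1 of the 6 was called.

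Of 22 tested iron-deficiency genes, many known to be induced with the coumarin genes, 10 were DEGs as lower in salt and 0 as higher. Over all genes tested the shares were 7.84% and 9.59%. By the adjusted p-value alone, 14 of the 22 were lower and 2, ILR3 and bHLH34, were higher. The median log2 fold change was -0.59, or -0.42 without mock B, where 10 were again DEGs as lower. bHLH39, a partner of FIT, had 4.03, 4.77 and 5.36 CPM in salt, against 45.0, 54.2 and 40.3 CPM in mock, a 9.58-fold fall. bHLH100, of the same subgroup, had 1, 0 and 1 counts in salt, against 29, 81 and 51 counts in mock. IMA2, a small peptide that signals iron shortage, had 1, 2 and 6 counts in salt, against 28, 11 and 56 counts in mock. Of the 8 photosynthetic shoot markers, 5 were also DEGs as lower in salt and 0 as higher, and their part in these results was not tested.

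With flg22, 0 of the 5 members tested were called, and 0 passed the adjusted p-value alone. The background was low as well, with 0.856% of 18230 genes called as DEGs and 3.68% passing the adjusted p-value in edgeR's quasi-likelihood test. At an unadjusted p under 0.05 none of the 5 passed either, and DESeq2's Wald test called 0. This comparison shares its mock libraries with the salt comparison.

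F6'H1 had 449, 415 and 496 CPM with flg22, against 299, 520.2 and 235 CPM in mock. All flg22 libraries were above mock A and C and below mock B, so the groups overlapped. The log2 fold change was 0.34 (SE 0.32, 95% interval -0.48 to 1.15, edgeR quasi-likelihood adjusted p = 0.671 with Benjamini-Hochberg adjustment). Without mock B it was 0.73 with an edgeR adjusted p of 0.013, still under the fold threshold, and over 13 alternatives the adjusted p ranged from 0.013 to 0.896.

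CYP82C4 had 61.0, 36.0 and 34.8 CPM with flg22, against 40.6, 144.3 and 49.3 CPM in mock. Its log2 fold change of -0.85 had a 95% interval of -2.48 to 0.78, and without mock B the value was -0.08. S8H had 9, 5 and 6 counts with flg22, against 4, 62 and 7 in mock, and was not tested. These ranges overlapped for both genes.

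PDR9 had 761, 531 and 586 CPM with flg22, against 583, 629.6 and 502 CPM in mock, with an interval for the log2 fold change of -0.25 to 0.44. COSY had 4.73, 5.05 and 6.39 CPM with flg22, against 3.74, 5.24 and 5.93 CPM in mock, and its interval was -0.46 to 0.58. BGLU42 had 26.3, 26.7 and 26.0 CPM with flg22, against 27.1, 29.4 and 29.6 CPM in mock. It was the 1 tested member of 5 whose groups did not overlap, as was the case for 24.6% of all 18230 genes tested, and its log2 fold change of -0.16 did not pass the test (edgeR adjusted p = 0.418). In the 3 lists of supply, relatives and iron-deficiency genes, 0 were DEGs with flg22. BTS, a ubiquitin ligase that restrains the iron response, was the only 1 to pass the adjusted p-value, at a log2 fold change of 0.31 (edgeR adjusted p = 0.03), and is named because it was the only 1.

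Under mannitol, 0 of the 5 members tested were DEGs and 1, PDR9, passed the adjusted p-value alone. Of all 18939 genes tested, 16.4% were DEGs, 8.98% higher and 7.46% lower, and 52.1% passed the adjusted p-value. At an unadjusted p under 0.05 in edgeR 2 of the 5 passed, PDR9 and F6'H1, both under the fold threshold, and DESeq2's Wald test called 0 as DEGs.

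PDR9 had 442, 377 and 397 CPM in mannitol, against 577, 522.5 and 560.1 CPM in the mannitol control. All mannitol libraries lay below all controls, and 60.9% of the 18939 genes tested had groups that did not overlap. Mannitol gave a log2 fold change of -0.43 (SE 0.08, 95% interval -0.61 to -0.26, adjusted p = 0.000552 in edgeR's quasi-likelihood fit after Benjamini-Hochberg correction). It ranged from -0.53 to -0.39 over 13 alternatives.

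F6'H1 had 66.1, 33.7 and 54.9 CPM in mannitol, against 77.0, 77.3 and 84.3 CPM in the mannitol control. No mannitol library reached a control library, but library B was well below its group-mates. The log2 fold change of -0.61 (SE 0.22, 95% interval -1.14 to -0.09) narrowly missed the threshold, with an edgeR adjusted p of 0.0536. Without mannitol B it was -0.39 with an edgeR adjusted p of 0.00657, and over all 13 alternatives the adjusted p ranged from 0.00657 to 0.119.

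CYP82C4 had 60.6, 16.0 and 49.0 CPM in mannitol, against 22.9, 21.0 and 27.6 CPM in the mannitol control. Libraries A and C were above every control and library B below them, so the groups overlapped. For CYP82C4 the log2 fold change was 0.83 (SE 0.53, 95% interval -0.59 to 2.24, edgeR quasi-likelihood adjusted p = 0.264 with Benjamini-Hochberg adjustment). Without mannitol B it was 1.21, at an adjusted p of 8.85e-06 in the same edgeR test, and CYP82C4 would be called as higher.

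S8H had 8, 2 and 3 counts in mannitol, against 12, 9 and 16 in the mannitol control, and was not tested. Scaled to library size, mannitol A at 0.813 CPM lay above control B at 0.621 CPM, so the groups overlapped. When mannitol A was left out S8H passed the filter and the edgeR threshold, at a log2 fold change of -2.06 and an adjusted p of 0.0199. COSY had 13.3, 10.9 and 14.1 CPM in mannitol, against 7.61, 12.8 and 12.1 CPM in the mannitol control, and the interval of its log2 fold change was -0.14 to 0.65. BGLU42 had 21.6, 32.7 and 33.3 CPM in mannitol, against 28.4, 28.8 and 32.5 CPM in the mannitol control. For COSY and BGLU42 the groups also overlapped.

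Library B of mannitol was also low for IRT1 and FRO2, which were chosen after their values were seen and do not stand for the iron-deficiency list. Of its 22 genes, 3 were counted as at least 2-fold below both group-mates in mannitol B and 1 above. In mannitol C 3 were counted as below and 0 above. Both counts of 3 include bHLH100, which was at 0 in mannitol B and C and so tied between them. The others in mannitol C were IMA1 and IMA2, both near the detection limit, so the equal counts are no measure of a like fall. FIT was at 1.065 times and NRAMP1 at 1.18 times the mean of the group-mates in mannitol B. IRT1, the root iron importer, had 152, 32.2 and 107 CPM in mannitol, against 124, 97.5 and 105 CPM in the mannitol control. FRO2, the ferric reductase, had 26.0, 9.30 and 21.7 CPM in mannitol, against 59.3, 40.0 and 43.6 CPM in the mannitol control. Mock B was the highest mock library for both genes, though in neither 2-fold above both group-mates, with 378 CPM of IRT1 and 186.5 CPM of FRO2, against 265 and 244 CPM of IRT1 and 99.9 and 88.9 CPM of FRO2 in mock A and C. Of the 22 genes, 1 lay at least 2-fold above and 1 at least 2-fold below both group-mates in mock B.

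**Figure D3:**
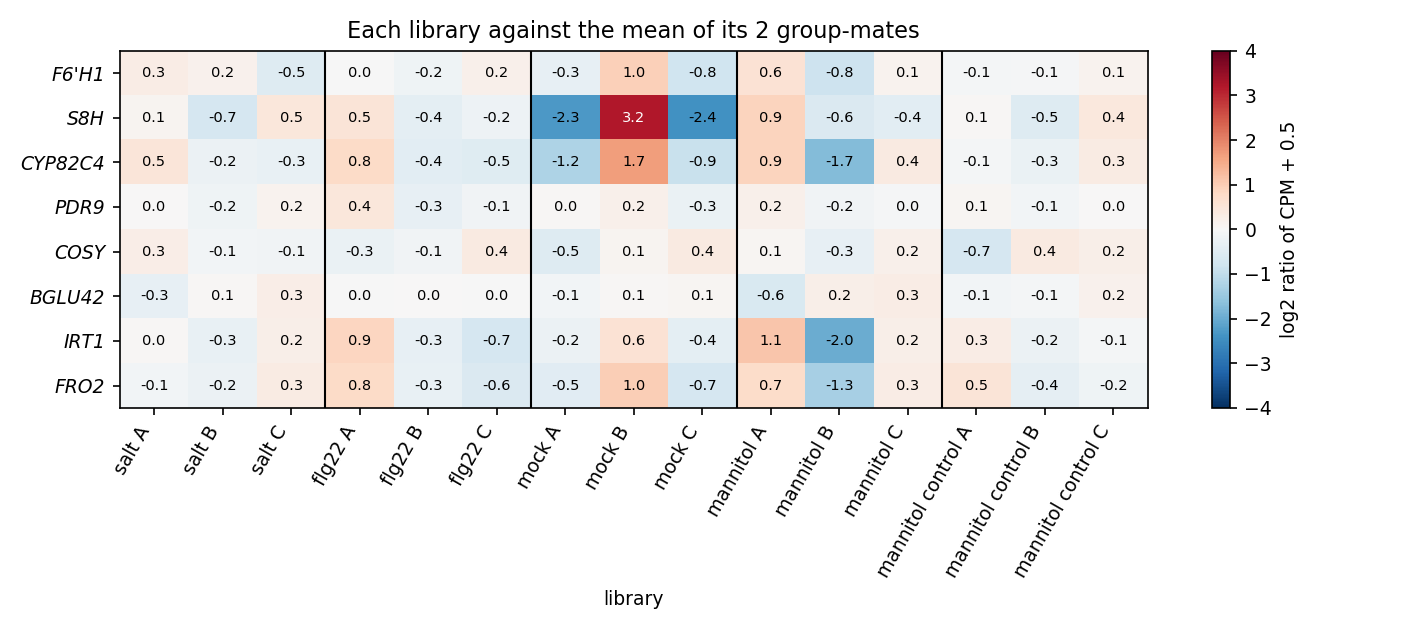
Log2 ratio of each library to the mean of the other 2 libraries of its group, computed on CPM + 0.5, for 6 members and for IRT1 and FRO2. Red is above and blue below the group-mates, and black lines separate groups. Mock B is above the mean of its group-mates in all 8 genes, most in S8H, although below mock C for COSY and BGLU42. Mannitol B is below that mean in 7 of the 8, all but BGLU42.

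With group means removed, F6'H1 and CYP82C4 had Pearson's r = 0.851 over the 15 libraries. Both deviated most from their group-mates in mock B and mannitol B, and r without these libraries was not computed. Log2 ratios to the group-mates, on CPM + 0.5, were 0.96 for F6'H1 and 1.67 for CYP82C4 in mock B. In mannitol B they were -0.83 and -1.75. In flg22 A, B and C they were -0.02, -0.19 and 0.20 for F6'H1 and 0.78, -0.41 and -0.47 for CYP82C4. With group means removed, CYP82C4 also varied with FRO2 (r = 0.884) and IRT1 (r = 0.846), both chosen after their values were seen. It varied little with the iron regulators bHLH39 (r = 0.259) and FIT (r = 0.178). PDR9 had r = 0.751 with FRO2, 0.658 with IRT1, 0.668 with bHLH39 and -0.004 with FIT, so the regulators were not alike for all members. F6'H1 had r = 0.681 with FRO2, 0.636 with IRT1, 0.152 with bHLH39 and -0.025 with FIT, while COSY and F6'H1 had r = 0.275 and BGLU42 and F6'H1 r = -0.438. These values describe the libraries, which share preparation and depth within a library, and carry no test.

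Of 13 tested genes of phenylpropanoid supply, 2 were DEGs as higher in mannitol and 1 as lower, against 8.98% and 7.46% of all genes tested. By the adjusted p-value alone, 8 were higher and 1 lower. Their median log2 fold change was 0.53, against -0.02 over all genes. PAL4 rose 3.71-fold and 4CL5 rose 2.12-fold, whereas 4CL3 fell 2.08-fold. Of 6 relatives, 1 was a DEG as higher and 2 as lower. PDR12, an ABC transporter of the same family as PDR9, rose 2.64-fold, F6'H2 fell 5.34-fold and MYB10 fell 4.16-fold. F6'H2 had 8, 6 and 6 counts in mannitol, against 60, 44 and 27 counts in the mannitol control.

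Of 22 iron-deficiency genes, 9 were DEGs as lower and 0 as higher in mannitol, against 7.46% and 8.98% of all genes tested. Their median log2 fold change was -0.60, and 7 were DEGs as lower without mannitol B. By the adjusted p-value alone, 13 of the 22 were lower and 4, PYE, bHLH121, BTS and NAS4, were higher. bHLH100 had 1, 0 and 0 counts in mannitol, against 32, 20 and 20 in the mannitol control. IMA1, another signalling peptide, had 1, 3 and 0 counts in mannitol, against 28, 40 and 43 in the mannitol control, and IMA2 had 4, 5 and 2 counts, against 24, 89 and 86. FIT, the main regulator of iron uptake in the root and named after its values were seen, had 14.9, 13.7 and 10.7 CPM in mannitol, against 72.4, 61.9 and 72.9 CPM in the mannitol control. In salt FIT had 38.2, 35.2 and 37.1 CPM, against 69.3, 88.3 and 95.2 CPM in mock.

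**Figure D4:**
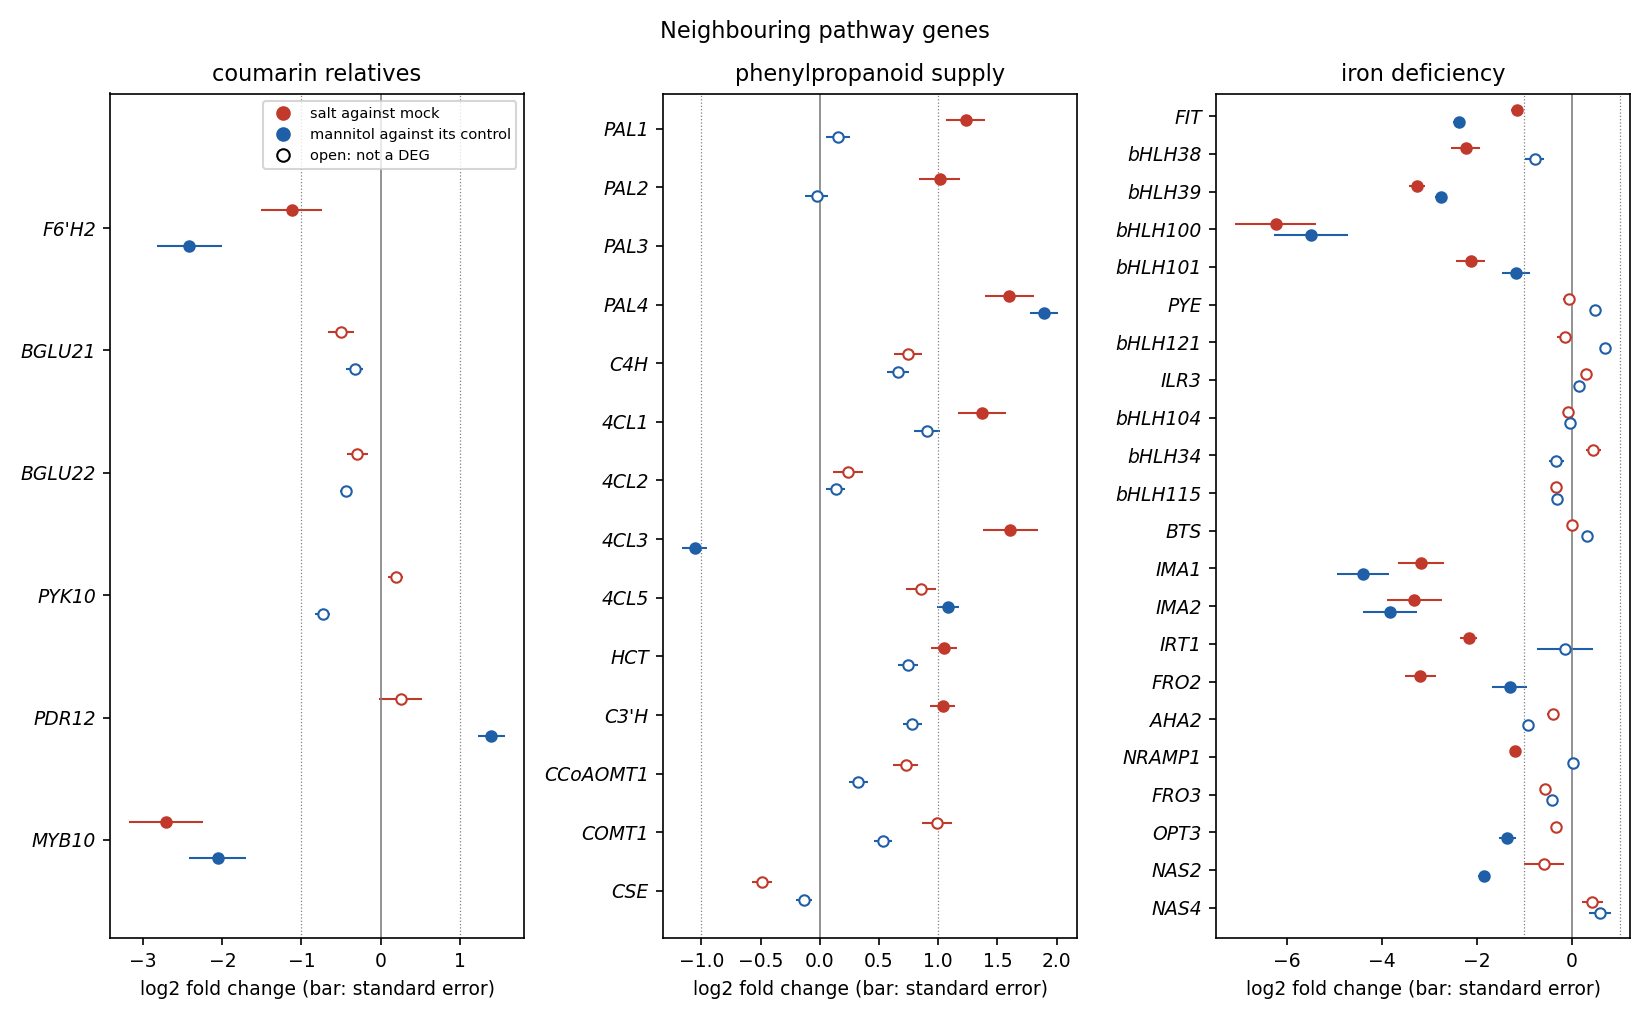
Log2 fold change with its standard error in salt against mock (red) and mannitol against the mannitol control (blue) for the relatives, the phenylpropanoid supply genes and the iron-deficiency genes. Filled points are DEGs, dotted lines mark a log2 fold change of 1 in size, and PAL3 was not tested. In salt 7 supply genes were DEGs as higher and 10 iron-deficiency genes as lower, and 4CL3 rose in salt and fell in mannitol.

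Whether a gene's response differed between salt and mannitol was tested as an interaction over 4 groups, each treatment against its own control. By the methods for imaging, the 2 treatments also differed in medium, so treatment and set-up cannot be told apart in this test. Of the 6 members tested, 1 was called, with 9.29% of 19363 genes called in all and 19.5% passing the adjusted p-value alone. F6'H1 responded more negatively to salt, with a difference of -1.60 on the log2 scale (SE 0.46, 95% interval -2.63 to -0.57, edgeR quasi-likelihood adjusted p = 0.0378 with Benjamini-Hochberg adjustment). Leaving out 1 library lost this call in 9 of 12 fits, in each of which the edgeR adjusted p was 0.0505 to 0.0968. It held without mock B, at -1.19, and without mannitol B, at -1.85. Means of F6'H1 were 74.6 CPM in salt and 51.5 in mannitol, against 351.5 in mock and 79.6 in the mannitol control.

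CYP82C4 had the larger difference, -2.76 (SE 0.84), and missed the threshold with an edgeR adjusted p of 0.051. It was called in 8 of 19 alternatives, as was F6'H1. PDR9 had nearly the same response to both treatments, with a difference of -0.12 and a 95% interval of -0.41 to 0.18, and COSY a difference of 0.15 with an interval of -0.49 to 0.80. Among supply genes 4CL3 differed most, by 2.66 (SE 0.27), with PAL1 at 1.07 and PAL2 at 1.03, and 3 of 13 were called as higher in the salt response. Of the iron-deficiency genes, 2 were called as higher and 3 as lower. The 2 higher, named after their values were seen, were FIT, at 1.21, and OPT3, an oligopeptide transporter, at 1.03. FRO2 differed by -1.88, bHLH38 by -1.46 and NRAMP1, a manganese and iron transporter, by -1.22, and of the relatives PDR12 differed by -1.15.

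The 2 untreated groups differed in the pathway as well. Of the 6 members tested, 2 were DEGs between mock and the mannitol control, F6'H1 as higher in mock and COSY as lower. Of all 18927 genes, 13.4% were called, 6.79% higher and 6.6% lower, and 42.5% passed the adjusted p-value alone. Treatment medium, handling and any other difference between the experiments cannot be told apart here. The mock libraries are those of the salt and flg22 comparisons, so these results are not independent of each other.

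F6'H1 was 4.48-fold higher in mock, with 299, 520.2 and 235 CPM, against 77.0, 77.3 and 84.3 CPM in the mannitol control. The groups did not overlap, as in 54.2% of the 18927 genes tested. On the log2 scale the difference was 2.16 (SE 0.35, 95% interval 1.24 to 3.09, edgeR quasi-likelihood adjusted p = 0.00831 with Benjamini-Hochberg adjustment), and it was 1.76 without mock B. All 13 alternatives called it. The salt libraries, at 58.3 to 85.1 CPM, thus lay near the level of the mannitol control, a comparison across experiments that was not tested.

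COSY was 2.10-fold lower in mock, with 3.74, 5.24 and 5.93 CPM, against 7.61, 12.8 and 12.1 CPM in the mannitol control. Its log2 fold change of -1.07 (SE 0.24, edgeR quasi-likelihood adjusted p = 0.00386 with Benjamini-Hochberg adjustment) lay just past the fold threshold. It fell short of that threshold, at -0.98 to -0.92, without mock A or without library B or C of the mannitol control.

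CYP82C4 had 40.6, 144.3 and 49.3 CPM in mock, against 22.9, 21.0 and 27.6 CPM in the mannitol control. The groups did not overlap, yet the log2 fold change of 1.72 (SE 0.61) missed the threshold at an edgeR adjusted p of 0.0894. Without mock B it was 0.95, with an edgeR adjusted p of 1.54e-05 and a fold just under the threshold. S8H had a log2 fold change of 1.81 with a 95% interval of -1.56 to 5.19 (edgeR adjusted p = 0.33), and it was -0.67 without mock B. PDR9 and BGLU42 had log2 fold changes of 0.07 (95% interval -0.11 to 0.25) and -0.03.

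Among the lists, 0 of 13 supply genes were DEGs as higher in mock and 2 as lower, 4CL3 9.08-fold and PAL1 2.01-fold. Without mock B 4 were DEGs as lower, and by the adjusted p-value alone 10 were lower with all libraries. Of 6 relatives, BGLU21, a beta-glucosidase that hydrolyses scopolin, was 2.22-fold higher, and PYK10, the abundant beta-glucosidase of ER bodies, was 2.79-fold lower. Of 22 iron-deficiency genes 4 were DEGs as higher and 1 as lower, and by the adjusted p-value alone 11 were higher and 2 lower. NRAMP1 was 3.79-fold higher in mock, bHLH100 3.75-fold higher, and NAS2, a nicotianamine synthase, 10.7-fold lower. Of the 8 photosynthetic shoot markers 5 were DEGs as higher in mock and 0 as lower, and their part in these differences was not tested.

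Genes whose levels followed a member most closely over the 15 libraries were found by Pearson's r of log2(CPM + 1) among 18698 genes. For F6'H1 these were AT3G54040, a PAR1 protein (r = 0.983), and AT4G04990, a protein with a DUF761 domain (r = 0.982). CYP82C4 was followed less closely, by OSM34, an osmotin (r = 0.878), and AT3G07720, a kelch repeat protein (r = 0.875). PDR9 was followed by MTPA2, a metal tolerance protein (r = 0.955), and AT2G36410 (r = 0.954). COSY was followed by AT1G16700 (r = 0.957) and AT5G62200 (r = 0.942), and BGLU42 by AT1G04680 (r = 0.843) and CER7 (r = 0.835). Libraries of a group share their treatment, so these values describe the pattern and carry no test.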

How the data were processed

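The deposited data are whole-number counts of reads per gene, which the authors made by trimming with Trimmomatic, mapping to Araport11, discarding duplicates with Picard and counting with HTSeq. The libraries were nonstranded, and tool versions and counting options are not given in the sources used here. Duplicate removal without molecular identifiers can lower the counts of abundant genes. All 15 columns were used and 0 were left out. For the mannitol control, column names differ from sample titles, and the match rests on its being the only other untreated group.

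Each comparison of 3 with 3 libraries was a robust quasi-likelihood fit in edgeR 4.0.16 under R 4.3.3. Genes were kept by filterByExpr at a minimum count of 10, libraries were scaled by TMM, and p-values were adjusted over all tested genes after Benjamini and Hochberg. The interaction was fitted over the 12 libraries of its groups. CPM values use TMM factors over the 15 libraries. The code was checked on counts with known changes. The members and lists were chosen with earlier results of these data known. Named genes are the members, up to 3 DEGs with the largest fold change per list and comparison, the 2 genes most like each member with a median of at least 1 CPM, and the genes said to be named after their values were seen. Replicate letters are shared by all groups, but same-lettered libraries did not deviate together, so no pairing was used.

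The settings varied were the normalization (upper quartile, or size factors of DESeq2), the filter (none, or 10 counts in all libraries), the tool (Wald test of DESeq2 1.42.0), the threshold (unadjusted p-values, or no fold minimum), a block for the replicate letter, a joint fit of all 15 libraries, and the omission of each library in turn. Where the text counts alternatives of a gene, 13 or 19 for the interaction, those that change the threshold itself are left out. Fits of the lists without mock B or mannitol B were chosen after seeing the data. Gene positions and promoters are from RefSeq TAIR10.1, whose genes were matched by locus, and were not taken from the deposited table. Analyses used Python 3.11.15 and pandas 2.3.3, with plots in matplotlib 3.10.9.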

Additional observations from a re-analysis of the deposited data

Results flagged for a closer look

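The interaction of F6'H1, its salt response minus its mannitol response, -1.60 on the log2 scale (edgeR quasi-likelihood adjusted p = 0.0378 with Benjamini-Hochberg adjustment), stands out because the gene's response to salt differs from its response to mannitol by a test of the difference itself. F6'H1 fell in salt against mock, with a log2 fold change of -2.20, and had -0.61 in mannitol against the mannitol control, which missed the threshold. Over 12 fits without 1 library the difference ranged from -1.85 to -1.19 and was called in 3. Each treatment has its own control, and the 2 controls differ in F6'H1 by 2.16 on the log2 scale. Treatment and set-up therefore cannot be told apart in this difference.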

How the results depend on the processing

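No value reversed its direction past a threshold under any alternative run. The count of members called in salt against mock, 2, was 1 with no count filter and 1 with the replicate block, and 1 to 2 without 1 library (without salt A, B or C), CYP82C4 being lost each time. It was 3 with all 15 libraries in 1 fit, where S8H was added, and 3 without a fold threshold. In mannitol against its control it was 0, and 1 without a fold threshold (PDR9) and 0 to 1 without 1 library. In mock against the mannitol control it was 2, 3 with DESeq2's Wald test, all 15 libraries in 1 fit or unadjusted p-values, and 1 to 2 without 1 library. For the interaction it was 1. It was 2 with DESeq2 size factors, upper-quartile normalization, at least 10 counts in every library, DESeq2's Wald test, all 15 libraries in 1 fit or unadjusted p-values, 0 with no count filter or the replicate block, and 0 to 2 without 1 library. With flg22 it was 0 under every alternative.

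Over all genes, dropping the fold threshold gave 7746 calls in salt, 670 with flg22, 9862 in mannitol, 8050 between the untreated groups and 3778 for the interaction. The flg22 count of 156 was 71 with the replicate block, 258 with unadjusted p-values and 50 to 180 without 1 library. Leaving out flg22 B gave 53 calls, flg22 C 50 and mock C 66. Same-lettered libraries correlated at -0.263 to 0.095, so a call lost with the block is no measure of a weaker effect. In the block CYP82C4 in salt had -1.74 with an edgeR adjusted p of 0.0909. Counts were lowest for MYB72, with 0 or 1 in each library, and for S8H, at 3 or fewer in all salt libraries and in mannitol B and C. The causes of these changes were not tested.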
